A study of Mus musculus with 6 samples.

Results

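The replication-independent histone variants take the place of the standard core or linker histones in chosen stretches of chromatin. They are encoded by histone genes whose transcription is not confined to S phase. Their transcripts were measured by RNA sequencing in the mouse melanoma line B16, and 10 genes were chosen by symbol among the 22740 protein-coding genes of the deposited count table: H3f3a, H3f3b, H2afz, H2afv, H2afx, H2afj, H2afy, H2afy2, H1f0 and H1fx. All 10 were in the table. The cells had been kept for 3 days with 1 uM CX-5461 or with its vehicle DMSO, with 3 samples per group. CX-5461 is known as an inhibitor of RNA polymerase I, which transcribes ribosomal RNA, and has also been described as a ligand of G-quadruplex DNA. Both groups are the same line, named B16 in the sample labels and B16-F10 in the study's design, and the genotype label of both is negative for BRAF V600E. A single line was used, and nothing in the labels says whether the 3 samples of a group were grown as separate cultures, so p-values measure the spread between these samples only.

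Standard histones are made in bulk during DNA replication from clustered genes without introns. The variant genes lie apart, and their transcripts are mostly, though not in every case, polyadenylated like those of most genes. H3.3 is placed at active genes by the HIRA complex and at telomeres and other heterochromatin by ATRX and DAXX. H2A.Z marks promoters, H2AX is phosphorylated beside DNA double-strand breaks, macroH2A carries a large additional domain and is associated with silent chromatin, and H1.0 is a linker histone that accumulates in cells that stop dividing or differentiate. In melanoma, macroH2A has been described as a restraint on tumour progression and H2A.Z.2, the product of H2afv, as a factor that sustains proliferation.

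The 3 libraries of the CX-5461 group held 17877481 to 22908309 counts and the 3 of the DMSO group 17573990 to 20198979. Levels are given as CPM, counts scaled to equal library totals and then by TMM, which sets the typical gene equal between libraries, so that a change of all genes at once would not show. The 7 melanocyte markers used to check the labelled cell type summed to 28241 to 30542 CPM with CX-5461 and 22071 to 22922 CPM with DMSO. Of 11 markers of fibroblasts, leucocytes, keratinocytes and endothelium, 8 averaged below 1 CPM in both groups, and the 11 summed to 18.5 to 20.8 CPM with CX-5461 and 20.6 to 25.02 CPM with DMSO. Of the 3 that could be tested, Col1a1 was lower with CX-5461, at 2.81 ± 0.364 CPM with CX-5461 and 6.94 ± 1.61 CPM with DMSO (SD, n = 3 per group, edgeR adjusted p = 1.08e-05), and Pdgfra at 4.50 ± 0.540 and 5.80 ± 1.02 CPM (adjusted p = 0.0442). Cd68, which had the highest level of the 11, lay the other way but did not pass at 0.05. It averaged 12.3 CPM with CX-5461 and 10.6 CPM with DMSO, without overlap (edgeR adjusted p = 0.0628). The part of these markers in the results was not tested. Among the 11, Cd3e, Krt5 and Cdh5 had no count in any library. Mitochondrial genes took 2.70% to 3.40% of counts with CX-5461 and 1.70% to 1.84% with DMSO, and the part of this shift in the results was not tested. The library of CX-5461 replicate 2 stood apart. Its chi-square per degree of freedom against CX-5461 replicates 1 and 3 was 9.39 and 7.64, against 5.65 between those replicates and 1.57 to 2.54 between DMSO libraries.

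With CX-5461 the variant genes did not move as a block. The linker histone gene H1f0 fell 2.47-fold and the H3.3 gene H3f3b fell 1.49-fold, and with smaller changes H2afx and H1fx fell too. H2afj rose 1.47-fold, H2afv 1.25-fold, H3f3a 1.13-fold and H2afy 1.10-fold. H2afz did not pass the test, and H2afy2 had too few counts to be tested. A change was called at a Benjamini-Hochberg adjusted p below 0.05 in edgeR's quasi-likelihood test over all 12198 genes with enough counts. Of the 9 tested members 4 rose and 4 fell. Of all tested genes 73.7% changed, 37.2% upward and 36.5% downward, so that the members' share of calls is near that of genes at large. In 8 of the 9 tested members the CX-5461 and DMSO libraries did not overlap (4 higher and 4 lower with CX-5461), against 76.1% of all tested genes (38.2% higher and 37.9% lower). As these are bulk samples, fewer cells that express a gene and less RNA per cell cannot be told apart.

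**Figure D1:**
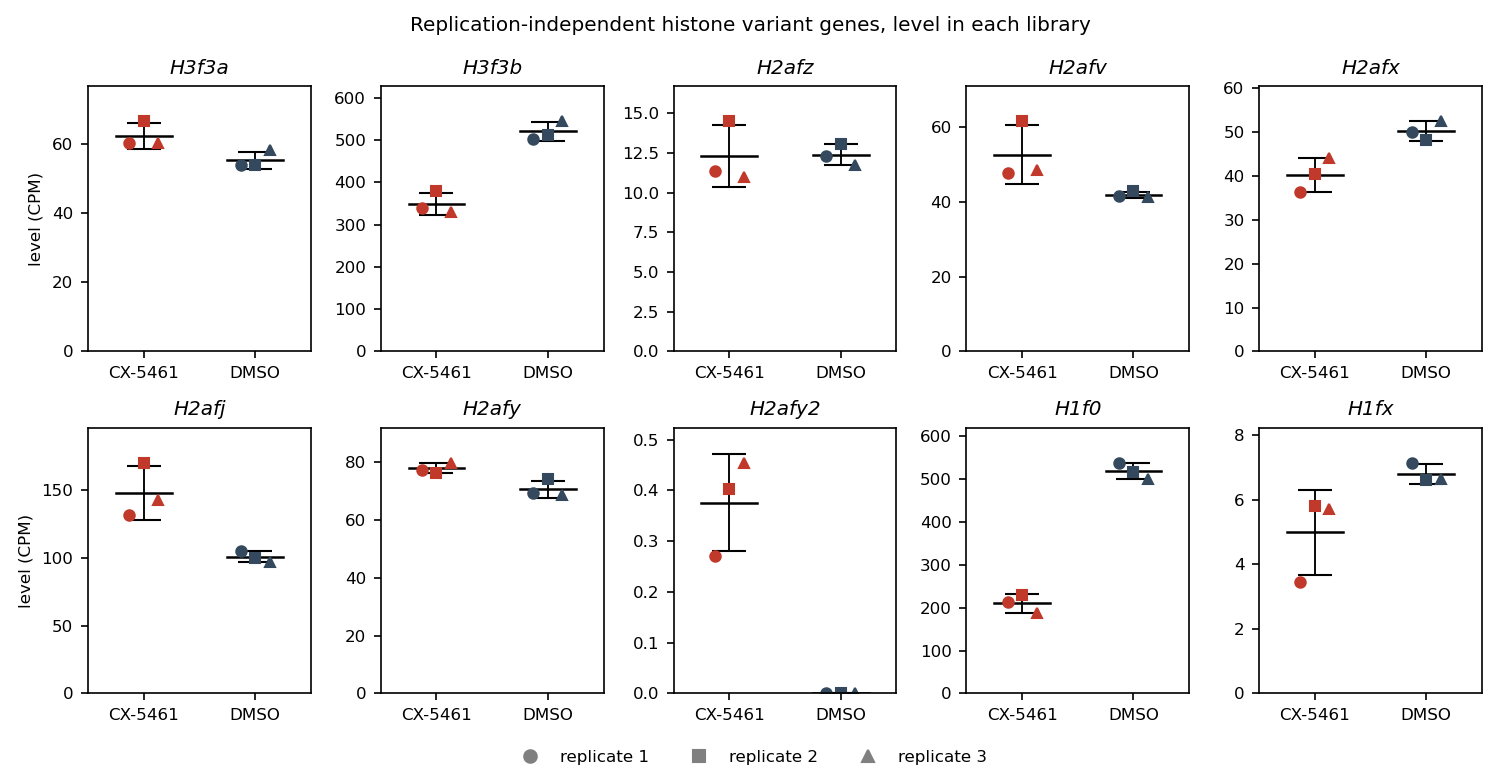
Level of each of the 10 histone variant genes in CPM (vertical axes, from 0, a scale for each gene) in the 3 CX-5461 and the 3 DMSO libraries; symbols mark the replicate number, horizontal lines the group mean and error bars the SD. H1f0 and H3f3b sit far lower with CX-5461, H2afj and H2afv higher, the groups overlap for H2afz, and H2afy2 has no count with DMSO.

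**Figure D2:**
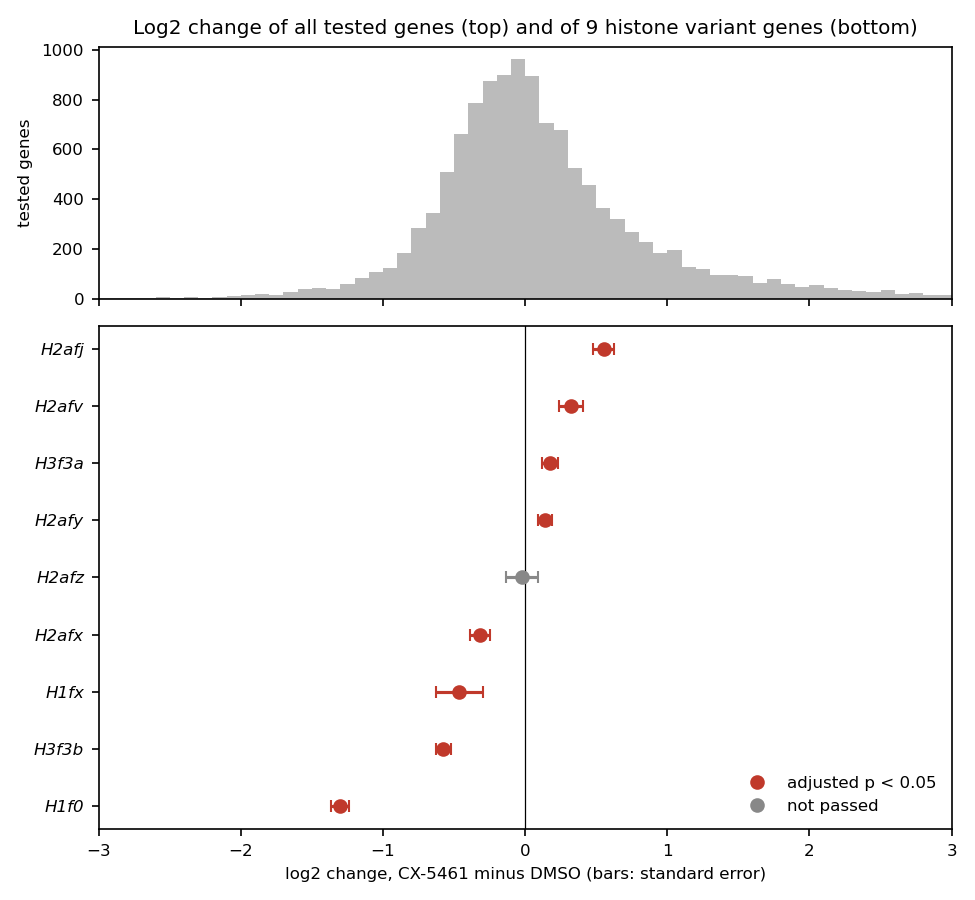
Top, number of tested genes by log2 change, CX-5461 minus DMSO (bins of 0.1; 173 genes beyond 3 in either direction lie outside the axis); bottom, log2 change of the 9 tested histone variant genes with its standard error on the same axis. H1f0 at -1.30 is the member farthest from 0, and the other members lie between -0.58 and 0.55, within the bulk of all genes.

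The genes for H3.3 went opposite ways. H3f3a and H3f3b are known to encode the same protein from different chromosomes. The upstream sequences of 3 members that changed, H3f3b, H2afv and H2afj, are shown here. These 3 held the most CCAAT of the members searched, so they do not stand for the members at large. Each line gives the 250 bases before the RefSeq transcription start (GRCm38.p6) on the strand of the gene, 5′ to 3′, with the letters CCAAT, read on either strand (ATTGG on the other), and TATAAA in capitals.
H3f3b (chr11:116024505-116024754, minus strand): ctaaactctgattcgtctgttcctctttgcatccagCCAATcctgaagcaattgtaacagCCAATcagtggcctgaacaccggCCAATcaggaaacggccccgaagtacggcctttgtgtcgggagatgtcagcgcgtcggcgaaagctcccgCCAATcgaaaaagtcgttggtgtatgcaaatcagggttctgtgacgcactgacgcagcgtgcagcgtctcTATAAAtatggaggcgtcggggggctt
H2afv (chr11:6444444-6444693, minus strand): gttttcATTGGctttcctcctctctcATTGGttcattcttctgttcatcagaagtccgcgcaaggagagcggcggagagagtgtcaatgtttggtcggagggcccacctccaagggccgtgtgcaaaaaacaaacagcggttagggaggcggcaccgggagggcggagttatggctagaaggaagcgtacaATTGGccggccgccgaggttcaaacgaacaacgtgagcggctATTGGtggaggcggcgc
H2afj (chr6:136807998-136808247, plus strand): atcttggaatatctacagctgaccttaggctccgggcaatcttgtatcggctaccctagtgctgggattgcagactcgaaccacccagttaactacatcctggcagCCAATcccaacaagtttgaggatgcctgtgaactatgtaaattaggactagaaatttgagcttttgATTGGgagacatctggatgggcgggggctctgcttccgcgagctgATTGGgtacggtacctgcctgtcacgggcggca
The H3f3b sequence held 4 CCAAT, all on the strand of the gene, and a TATAAA that began 27 bases before the start. H2afv also held 4 CCAAT, all on the other strand, and H2afj held 3. Among 32851 RefSeq promoters of the same length, 33.9% held a CCAAT on either strand, 2.79% at least 3 and 0.840% at least 4, and 12.4% held a TATAAA. RefSeq sequences were matched for 9 members, of which 5 held a CCAAT (H2afz and H3f3a are the others), 1 a TATAAA, 1 (H3f3a) the letters AAACACA of the H1 box, found in 6.25% of all promoters, and 0 the E2F-like letters TTTNNCGC, found in 4.28%. For H1f0 the RefSeq start, at 79028212, lies upstream of the annotated gene start at 79028450. The bases next to that annotated start were therefore not searched for H1f0. For H3f3b the RefSeq start, at 116024504, lies inside the annotated gene, which begins at 116027962 on its strand. The RefSeq starts of H2afy, H2afy2, H3f3a and H1fx also lie inside their annotated genes. Bases before the outermost annotated starts of these genes were thus not searched, or only in part. H1f0, H1fx and H2afy, which were also called as changed, held 0 CCAAT, as did H2afy2. For H2afx no RefSeq sequence was matched. CCAAT thus stood before members that rose and a member that fell, and was absent before others of both kinds. These are matches of letters and say nothing of binding.

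H3f3b (chromosome 11, 116021912 to 116027962, GRCm38, as for all gene positions here) had 339.3, 379.1 and 329.0 CPM in CX-5461 replicates 1 to 3, against 503.5, 511.8 and 546.0 CPM in DMSO replicates 1 to 3. Every CX-5461 library lay well below every DMSO library. The log2 change was -0.58 ± 0.05 (SE, n = 3 per group, edgeR adjusted p = 1.24e-07). H3f3a (chromosome 1, 180800832 to 180813943) had 60.4, 66.9 and 60.3 CPM with CX-5461, against 54.0, 53.9 and 58.2 CPM with DMSO. Its groups did not overlap but lay close, and the log2 change was 0.17 ± 0.06 (edgeR adjusted p = 0.0143). That call ended without DMSO replicate 1 (0.15, adjusted p = 0.0691), without DMSO replicate 2 (0.15, 0.0751) and with library totals in place of TMM (0.10, 0.127).

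Within each library the balance of the H3.3 genes could be read without any scaling between libraries. The count of H3f3b was 5.62, 5.67 and 5.45 times that of H3f3a in CX-5461 replicates 1 to 3 and 9.32, 9.49 and 9.38 times in DMSO replicates 1 to 3. H3f3b therefore supplied 84.5% to 85.0% of the H3.3 counts with CX-5461 and 90.3% to 90.5% with DMSO. The log2 ratio was lower by -0.75 with CX-5461, many times its SD of 0.03 with CX-5461 and 0.01 with DMSO. An exact two-sided permutation test over the 6 samples gave p = 0.1 (0.1 after adjustment over the 3 pairs of genes compared), the smallest p that 3 samples against 3 can give. In all, H3.3 transcripts per kb of exon summed to 135.2 ± 9.94 CPM per kb with CX-5461 and 190.7 ± 8.25 CPM per kb with DMSO (SD, n = 3 per group), a ratio of 0.709. Read sharing bears on these values: 27.1% of the 50-base stretches of the H3f3a transcripts also occurred in transcripts of other annotated genes, 39 pseudogenes among them, and 6.86% of those of H3f3b. An antisense gene, H3f3aos, overlaps H3f3a, and whether strand was used in counting is not given in the sources used here.

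**Figure D3:**
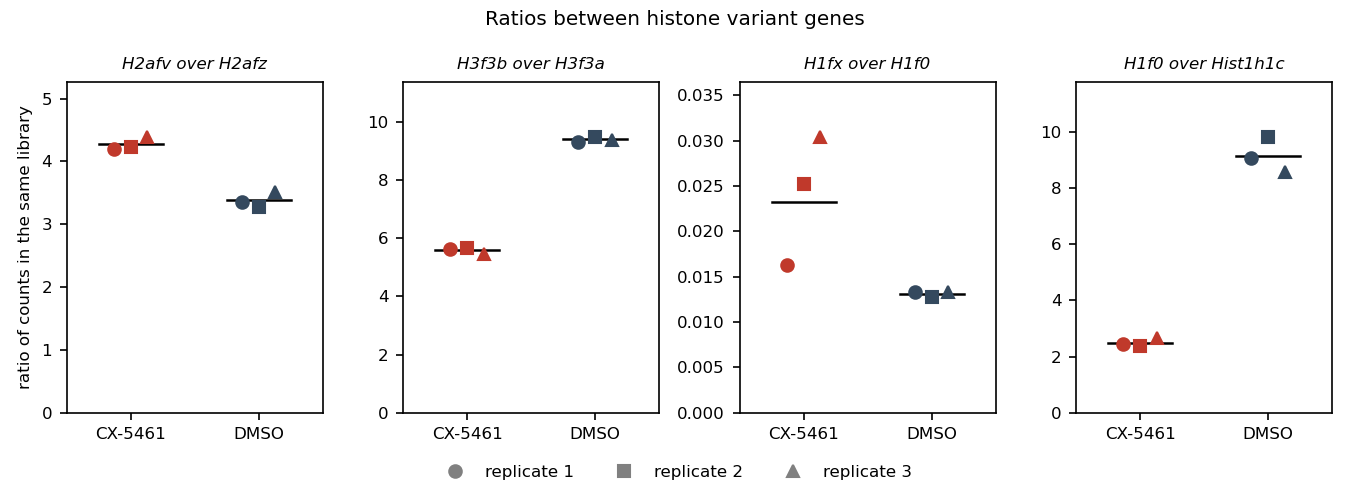
Ratio of the counts of paired histone genes within each library (vertical axes, linear from 0), with CX-5461 left of DMSO; points are libraries, symbols their replicate number and lines the geometric mean of a group. H3f3b over H3f3a and H1f0 over Hist1h1c are lower with CX-5461 in every library, H2afv over H2afz and H1fx over H1f0 higher.

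The genes for H2A.Z also parted, though less. H2afv (chromosome 11, 6427229 to 6444443), which encodes H2A.Z.2, had 47.6, 61.6 and 48.4 CPM with CX-5461, against 41.5, 42.8 and 41.4 CPM with DMSO. All CX-5461 libraries were higher, replicate 2 by most. The log2 change was 0.32 ± 0.08 (edgeR adjusted p = 0.00270), and 0.19 without CX-5461 replicate 2 (adjusted p = 0.00401). H2afz (chromosome 3, 137864487 to 137866922), which encodes H2A.Z.1, had 11.3, 14.5 and 11.02 CPM with CX-5461, against 12.3, 13.1 and 11.8 CPM with DMSO. The groups overlapped, with the highest and the lowest values both in the CX-5461 group, and the log2 change was -0.021 ± 0.11 (edgeR adjusted p = 0.872), from -0.15 to 0.047 over 20 alternatives. The H2afv count was 4.19, 4.24 and 4.39 times that of H2afz with CX-5461 and 3.36, 3.27 and 3.51 times with DMSO. That difference of 0.34 in the log2 ratio exceeded the SDs of 0.04 with CX-5461 and 0.05 with DMSO (exact permutation test, two-sided, p = 0.1, the smallest possible). The levels of the pair are not equally well measured. Of the 50-base stretches of H2afz transcripts, 35.4% recur in other annotated genes, 4 pseudogenes among them, and of those of H2afv 0%, so that the count of H2afz depends on how shared reads were treated, which is not given in the sources used here.

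H2afx and H2afj, the other H2A variants, moved apart as well. H2afx (chromosome 9, 44334694 to 44336077), a gene without introns in the annotation whose product is the substrate of the kinases that signal DNA breaks, had 36.3, 40.5 and 44.0 CPM with CX-5461, against 49.98, 48.2 and 52.6 CPM with DMSO. Each CX-5461 library was lower than each DMSO library, and the log2 change was -0.32 ± 0.07 (edgeR adjusted p = 0.000727). H2afj (chromosome 6, 136808244 to 136810074), whose product is known to accumulate in senescent human fibroblasts, had 131.2, 169.9 and 142.2 CPM with CX-5461, against 105.0, 99.9 and 97.0 CPM with DMSO. This was the largest rise among the tested members, at 0.55 ± 0.07 (edgeR adjusted p = 7.25e-06), and 0.44 without CX-5461 replicate 2, its highest library. Of their 50-base stretches, 9.66% for H2afx and 7.002% for H2afj recur in other genes, among them many replication-dependent H2A genes. The level of the H2afx transcript says nothing of the phosphorylated protein, which was not measured.

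The macroH2A genes differed above all in level. H2afy (chromosome 13, 56073619 to 56136361), which encodes macroH2A1 on a span of 62.7 kb, had 77.5, 76.5 and 79.9 CPM with CX-5461, against 69.4, 74.1 and 68.7 CPM with DMSO. The groups did not overlap, with a log2 change of 0.14 ± 0.05 (edgeR adjusted p = 0.0209). This call was the least firm of the 8: it ended without CX-5461 replicate 3 (0.12, adjusted p = 0.0845), DMSO replicate 1 (0.12, 0.0965) or DMSO replicate 3 (0.12, 0.0991), with library totals (0.067, 0.250), with no filter on low counts (0.12, 0.0530) and with an offset for GC content (0.063, 0.257). Counts per gene do not separate the spliced forms macroH2A1.1 and macroH2A1.2. H2afy2 (chromosome 10, 61738665 to 61784147), which encodes macroH2A2, had 6, 7 and 9 counts in CX-5461 replicates 1 to 3 and 0 counts in each DMSO library. The 22 counts amount to 0.370 CPM with CX-5461 (95% exact Poisson interval 0.232 to 0.561, counting error only). A floor of 3 counts, assumed for the DMSO group, is 0.0527 CPM. Against it the level with CX-5461 was 7.03-fold higher, or 4.41-fold at the lower end of the counting interval. H2afy2 failed the filter on low counts, and with no filter it passed (edgeR adjusted p = 8.54e-05 over 16073 genes). Per kb of exon it reached 0.173 CPM with CX-5461, where H2afy had 11.5 CPM, and 15.4% of its 50-base stretches occur in other genes, among them Aifm2, which overlaps it on the opposite strand.

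The linker histone genes both fell, one strongly and one weakly. H1f0 (chromosome 15, 79028450 to 79030504), which encodes H1.0, had 212.6, 230.4 and 187.6 CPM with CX-5461, against 538.2, 517.0 and 499.8 CPM with DMSO. The lowest DMSO library held more than 2 times the CPM of the highest CX-5461 library. The log2 change was -1.30 ± 0.06 (edgeR adjusted p = 4.56e-11), and 10.1% of all tested genes changed by more in either direction. Over 20 alternatives it ran from -1.38 to -1.23. H1fx (chromosome 6, 87980421 to 87981637), a linker histone gene outside the histone clusters, had 3.47, 5.81 and 5.71 CPM with CX-5461, against 7.16, 6.61 and 6.64 CPM with DMSO. All CX-5461 libraries were lower, replicate 1 by most, and the log2 change was -0.46 ± 0.17 (edgeR adjusted p = 0.0211). It rested on single libraries, since the call ended without CX-5461 replicate 1 (-0.25, adjusted p = 0.114) and without DMSO replicate 1 (-0.43, 0.0655). Antisense genes overlap both, Gm49544 for H1f0 and Gm5577 for H1fx.

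The fall of H1f0 stood beside a rise of a replication-dependent linker histone gene. Transcripts of that class mostly lack a poly(A) tail and the labels do not say how the RNA was selected, so a ratio between the classes is set side by side between the groups only and is no ratio of levels. Hist1h1c, which encodes H1.2 and had the most counts of its class, rose to 84.8 ± 13.4 CPM with CX-5461, against 56.7 ± 3.61 CPM with DMSO (log2 change 0.58 ± 0.09, edgeR adjusted p = 2.87e-05). Other linker genes of the class had few counts and did not all rise. Hist1h1d averaged 1.05 CPM with CX-5461 and 0.521 CPM with DMSO, with overlap (edgeR adjusted p = 0.0497). Hist1h1e, too low to be tested, averaged 0.270 CPM with CX-5461 and 0.632 CPM with DMSO. The H1f0 count was 2.45, 2.37 and 2.66 times that of Hist1h1c in CX-5461 replicates 1 to 3 and 9.08, 9.83 and 8.57 times in DMSO replicates 1 to 3. This ratio, chosen after its values were seen and so given without a test, was 3.67-fold lower with CX-5461, a log2 difference of -1.88. The H1fx count was 0.0163 to 0.0304 times that of H1f0 with CX-5461 and 0.0128 to 0.0133 times with DMSO, a log2 difference of 0.82 with SDs of 0.46 with CX-5461 and 0.03 with DMSO (exact permutation test, two-sided, p = 0.1). It ran from 0.63 without CX-5461 replicate 3 to 1.08 without CX-5461 replicate 1.

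Per kb of exon the order of the members differed between the groups. With CX-5461, H3f3b averaged 117.3 ± 8.88 and H1f0 102.3 ± 10.5 CPM per kb (SD, n = 3), and their libraries overlapped. With DMSO, H1f0 led with 252.2 ± 9.36 CPM per kb and H3f3b followed with 174.9 ± 7.57, without overlap. H2afj was next in both groups, at 80.7 ± 10.9 with CX-5461 and 55.0 ± 2.23 CPM per kb with DMSO. H2afv and H2afx overlapped with CX-5461, at 32.2 ± 4.83 and 29.1 ± 2.78 CPM per kb, and were apart with DMSO, at 25.7 ± 0.483 and 36.3 ± 1.62. H3f3a, H2afy, H2afz, H1fx and H2afy2 followed in that order in both groups, each apart from its neighbour, from 17.8 to 0.173 CPM per kb with CX-5461 and from 15.8 to 0 CPM per kb with DMSO. The exonic length is the union over all annotated transcripts of a gene, so a gene with many rare forms is set too low.

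In sum the 10 genes gave 402.1 ± 35.2 CPM per kb with CX-5461 and 582.8 ± 5.16 CPM per kb with DMSO, a ratio of 0.690. The linker histones H1f0 and H1fx made up 26.5% ± 1.30 of this sum with CX-5461 and 44.2% ± 1.40 with DMSO (SD, n = 3 per group). H2afj made up 20.02% ± 1.16 with CX-5461 and 9.43% ± 0.323 with DMSO, and the H2A.Z pair 9.69% ± 0.596 with CX-5461 and 5.60% ± 0.178 with DMSO. For H3f3b the shares were alike, 29.2% ± 0.542 with CX-5461 and 30.0% ± 1.41 with DMSO. As the sum itself was lower with CX-5461, a share does not give the change in a gene's level. H3f3b averaged 117.3 CPM per kb with CX-5461 and 174.9 with DMSO. For H2afx the share was 7.28% with CX-5461 and 6.23% with DMSO, while its level was 29.1 and 36.3 CPM per kb. The H2A.Z pair summed to 39.1 CPM per kb with CX-5461 and 32.6 with DMSO.

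**Figure D4:**
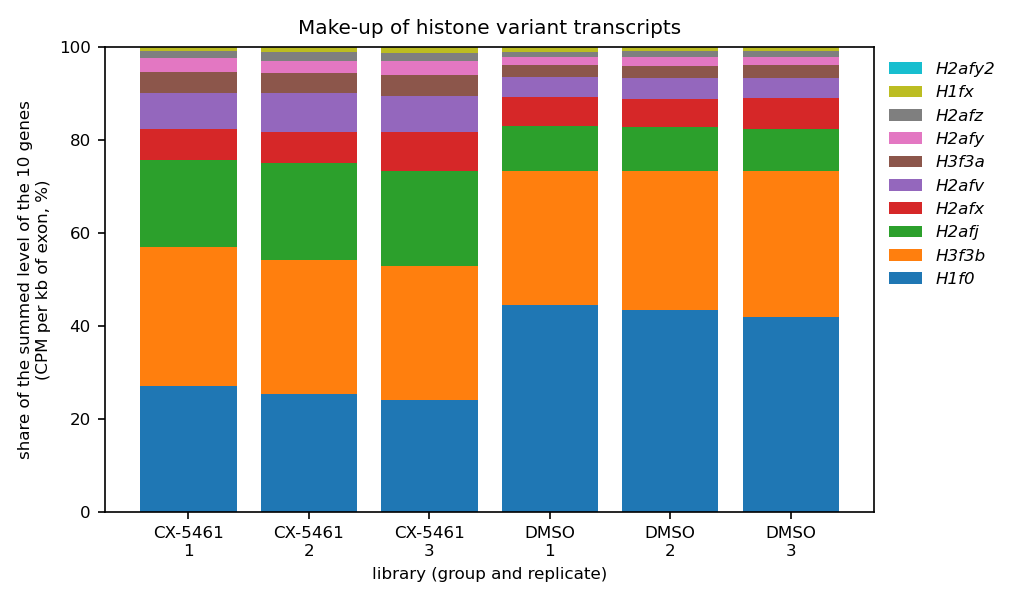
Share of each of the 10 genes in their summed level (CPM per kb of exon, in percent) in each library, with the CX-5461 libraries on the left and the DMSO libraries on the right. The H1f0 segment takes 24.0% to 27.1% with CX-5461 and 41.8% to 44.5% with DMSO, and the H2afj segment is wider with CX-5461.

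Libraries of a group agreed less with CX-5461 than with DMSO. Over the 9 tested members the coefficient of variation ran from 2.28% to 26.5% with CX-5461 and from 1.88% to 5.24% with DMSO. CX-5461 replicate 2 held the highest CPM of its group for H2afz, H2afv, H2afj, H3f3a, H3f3b, H1f0 and H1fx. Without it the 8 called members still passed in the same direction. Genes with the most similar profile over the 6 libraries were found by the root mean square difference of log2 CPM, each gene centred on its own mean, as a description. For H2afj these were Smim4 (0.035), Gemin7 (0.041) and Ndufb3 (0.043), and for H1f0 they were Plk3 (0.054), D1Ertd622e (0.056) and Trip10 (0.059). With groups this far apart, such a measure mostly finds genes with a like fold change.

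The machinery that places H3.3 moved in both directions. Of 8 genes of H3.3 deposition 2 rose, 4 fell and 2 were not called. Of all tested genes 73.7% changed, 37.2% upward and 36.5% downward, so that the part called is near that of genes at large. Their median log2 change was -0.17, where that of all tested genes was -0.0050. Asf1a, which hands H3-H4 to HIRA, fell to 27.5 ± 1.32 CPM with CX-5461, against 47.7 ± 3.43 CPM with DMSO (-0.79 ± 0.07, edgeR adjusted p = 5.16e-08). Daxx, the H3.3 chaperone that partners ATRX, fell to 43.6 ± 0.133 CPM with CX-5461, against 72.4 ± 4.59 CPM with DMSO (-0.73 ± 0.06, edgeR adjusted p = 1.51e-08). Cabin1, a subunit of the HIRA complex, rose by 0.49 ± 0.06 (edgeR adjusted p = 4.28e-06), or by 0.19 with gene span entered as an offset. Ubn1 and Ubn2, of the same complex, went the other way, by -0.31 ± 0.04 and -0.38 ± 0.07 (edgeR adjusted p = 1.32e-05 and 0.000227). Hira itself averaged 85.4 ± 2.87 CPM with CX-5461 and 82.3 ± 4.18 CPM with DMSO (0.054 ± 0.05, edgeR adjusted p = 0.362), and its sign turned in 4 of 20 alternatives. With the gene-span offset Hira passed as lower (-0.11, edgeR adjusted p = 0.0497). Atrx, the remodeller that partners DAXX, rose by 0.33 ± 0.06 (edgeR adjusted p = 0.000209). It was at -0.046 (edgeR adjusted p = 0.441) with the gene-span offset and at 0.53 with an offset for GC content.

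Most genes of the replication-coupled counterpart rose. Of 5 genes of CAF-1 and its partners 4 rose, 0 fell and 1 was not called, where 37.2% of all tested genes rose and 36.5% fell. The median log2 change of the 5 was 1.23. Asf1b, the ASF1 form of proliferating cells, rose to 47.4 ± 6.03 CPM with CX-5461, against 9.44 ± 0.634 CPM with DMSO (2.33 ± 0.10, edgeR adjusted p = 1.29e-11). Chaf1a, the large subunit of CAF-1, rose to 89.0 ± 11.8 CPM with CX-5461, against 18.8 ± 1.04 CPM with DMSO (2.24 ± 0.09, edgeR adjusted p = 5.06e-12). The paralogues Asf1a and Asf1b thus moved in opposite directions.

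Of 25 genes that place or remove H2A.Z 3 rose, 12 fell and 10 were not called, where 37.2% of all tested genes rose and 36.5% fell. Their median log2 change was -0.13. Anp32e, the chaperone that takes H2A.Z out of chromatin, fell to 151.6 ± 2.89 CPM with CX-5461, against 218.8 ± 4.42 CPM with DMSO (-0.53 ± 0.04, edgeR adjusted p = 2.22e-08). Actr6, an actin-related subunit of the SRCAP complex, fell by 0.57 on the log2 scale (SE 0.09), or by 0.34 with the GC offset. Ruvbl1, a helicase-like subunit of several remodellers, rose by 0.41 ± 0.07, whereas Ruvbl2 of the same list changed by -0.42 ± 0.06 (edgeR adjusted p = 1.15e-05). Ep400, the ATPase of the p400 complex, averaged 84.9 ± 12.8 CPM with CX-5461 and 89.1 ± 3.09 CPM with DMSO (-0.065 ± 0.08, edgeR adjusted p = 0.484). It passed as lower with the gene-span offset (-0.30, adjusted p = 0.000901) and turned to 0.047 without CX-5461 replicate 2. Srcap, the ATPase of the other depositing complex, has 2 identifiers in the table, of which the one with more counts was at -0.036 ± 0.07 (edgeR adjusted p = 0.667) and the other by -0.45 ± 0.12 (0.00442).

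Of 13 tested genes that phosphorylate, read or erase the mark on H2AX, 5 rose, 2 fell and 6 were not called. Of all tested genes 37.2% rose and 36.5% fell, so that the part that rose is near that of genes at large. The median log2 change of the 13 was 0.14. Eya1, a phosphatase of the H2AX tyrosine mark, rose to 155.6 ± 9.63 CPM with CX-5461, against 56.1 ± 0.915 CPM with DMSO (1.47 ± 0.05, edgeR adjusted p = 2.39e-12). Mdc1, which binds the phosphorylated serine, rose by 0.72 ± 0.07 and Baz1b, the tyrosine kinase, by 0.34 ± 0.05. Atr, a checkpoint kinase that phosphorylates H2AX at stalled forks, fell by 0.42 (SE 0.07), or by 0.26 with the GC offset. The kinases of this list did not move together. Prkdc rose by 1.24 ± 0.07 (edgeR adjusted p = 3.60e-10), and Atm was not called (0.18 ± 0.08, edgeR adjusted p = 0.0618). Of 5 tested genes around macroH2A 3 rose, 1 fell and 1 was not called, beside the same 37.2% and 36.5% of all tested genes. The median of the 5 was 0.40. The splicing regulator Mbnl2 rose by 0.76 ± 0.05, or 0.26 with the gene-span offset, and the RNA helicase Ddx5, which acts on macroH2A1 splicing, fell by 0.28 (SE 0.04). Qki, another regulator of that splicing, was not found in the table under this symbol.

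Among the remaining histone genes the centromeric H3 variant Cenpa rose to 54.6 ± 4.93 CPM with CX-5461, against 27.3 ± 1.73 CPM with DMSO (1.00 ± 0.07, edgeR adjusted p = 9.16e-09), and was the single tested gene of 11 other variant histones. Of 65 replication-dependent histone genes 11 could be tested, and 54 had too few counts, 24 of them none in any library. Of the 11, 5 reached the filter in all libraries of the CX-5461 group but not of the DMSO group, so that a rise was built into their choice and no count or median over the 11 is given. The 5 that reached it in every library were Hist1h1c, Hist1h2bc, Hist3h2a and Hist1h4i, which rose, and Hist2h2be, with 8.77 CPM with CX-5461 and 9.64 CPM with DMSO (edgeR adjusted p = 0.261). Hist1h2bc rose to 34.7 ± 2.06 CPM with CX-5461, against 5.55 ± 0.390 CPM with DMSO. All 65 together held 134.4 to 171.3 CPM with CX-5461 and 79.4 to 83.8 CPM with DMSO. Their share in the summed CPM of both classes was 12.9% to 14.5% with CX-5461 and 5.49% to 5.72% with DMSO. As with the ratio to Hist1h1c, these shares are set between the groups only and do not give the make-up of histone RNA.

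**Figure D5:**
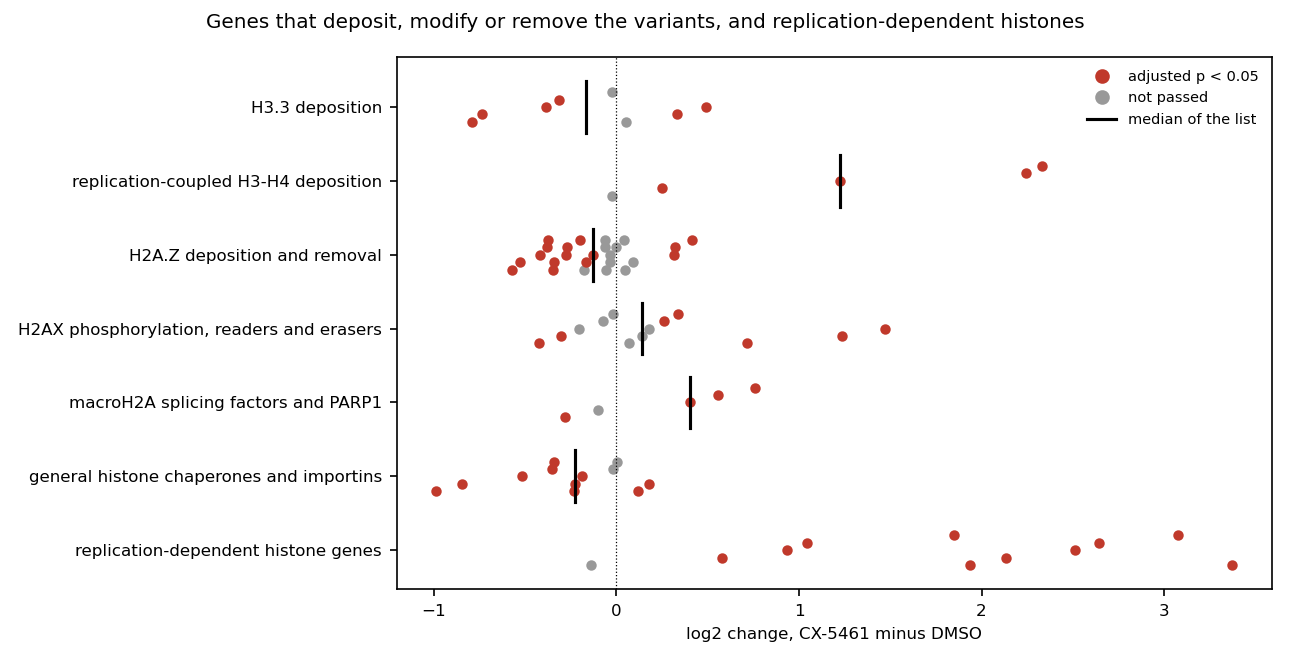
Log2 change, CX-5461 minus DMSO (horizontal axis), of each tested gene (points) of 6 lists of histone chaperones and partners and of the replication-dependent histone genes; red points passed at an adjusted p below 0.05 and black bars are medians of the 6 lists. The median of the replication-coupled list lies at 1.23 and the others between -0.23 and 0.40; no median is drawn for the replication-dependent genes, 5 of which passed the filter only through the CX-5461 group.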

How the data were processed

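RNA of 3 CX-5461 and 3 DMSO samples of B16 cells was described by whole-number counts per gene in 1 table deposited by the authors. These counts were not normalized by the authors, as column totals differ. Per the submitters' processing notes the builds are GRCm38 and mm10. The aligner, the counting tool, strand use and the treatment of multiply mapped reads were not given in the sources used here. All 6 columns were mapped by sample description.

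Genes were filtered with filterByExpr (minimum count of 10), scaled by TMM and tested with edgeR 4.0.16 (R 4.3.3) by the quasi-likelihood F test, two-sided, with treatment as the model and Benjamini-Hochberg adjustment over 12198 genes. SE was obtained from the log2 change and the F statistic. The common biological coefficient of variation was 4.86%. The procedure was tested on simulated data with few changed genes and the same spread in both groups. Here most genes changed and CX-5461 libraries varied more, so that test does not cover these conditions. The members and lists were chosen with earlier results of these data known. All members were named, and from each list the largest called rise and fall at 5 CPM or more, besides 13 genes always named. Prkdc, Atm, Ubn1, Ubn2, Ruvbl2, Hist1h1d and Hist1h1e were added with their values known. Where a symbol had several rows, the one with most counts was used. Of the planned pairs, H2afy2 over H2afy, has no ratio because of counts of 0. No pairing by replicate number was seen: same-numbered deviations correlated by 0.036, 0.0037 and -0.0084, and differently numbered ones by -0.040 to 0.035. With 3 libraries per group this check could not show whether same-numbered samples shared a culture or batch. Gene spans, exonic lengths and transcripts come from GENCODE M21 (GRCm38), which held 21919 of 22740 identifiers, and promoters from RefSeq. Alternatives were other scalings, filters and tools (DESeq2 1.42.0, limma 3.58.1 with voom), a replicate block, offsets for GC content and gene span, leaving out mitochondrial genes and the 50 genes with most counts, thinned counts, an adjusted p of 0.01 and each library left out.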

Additional observations from a re-analysis of the deposited data

How the results depend on the processing

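H1f0, H3f3b, H2afj, H2afv and H2afx kept their direction and call in all 20 alternatives. Calls near the threshold did not: at an adjusted p below 0.01, H2afy (0.14), H3f3a (0.17) and H1fx (-0.46) were lost, leaving 2 members higher; with library totals only, H2afy was at 0.067 and H3f3a at 0.10, again with 2 members higher; H2afy was at 0.12 with no filter, 0.063 with the GC offset and 0.064 with the GC offset and replicate block. The replicate block alone ended no call of a member (H2afy 0.14, adjusted p = 0.0305). With 1 library left out in turn, H2afy ran from 0.12 to 0.17, H3f3a from 0.12 to 0.21, H1fx from -0.59 to -0.25 and the members higher from 2 to 4. H2afz, never called, took the opposite sign with the gene-span offset (0.047) and ranged from -0.15 to 0.043 with a library left out.

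Among the lists, 379 of 400 counts stayed within 1.5 times. The other 21 include the counts of members given above and these: general chaperones higher were 1 at the stricter threshold, 0 with library totals, 1 with DESeq2 and 1 with thinned counts; macroH2A partners lower were 2 with library totals, no filter and the GC offset with or without the block; replication-coupled genes lower were 1 with library totals; replication-dependent histone genes lower were 1 with no filter; H3.3 deposition genes higher were 1 with the gene-span offset. With a library left out, general chaperones higher ran from 1 to 2, macroH2A partners lower from 1 to 2 and replication-dependent genes lower from 0 to 1. Hira was at -0.019 with library totals, -0.0092 with the GC offset and replicate block, -0.0082 with the GC offset and -0.11 with the gene-span offset. Atrx was at -0.046 and Srcap at 0.039 with the gene-span offset. With a library left out Srcap ran from -0.079 to 0.013 and Ep400 from -0.15 to 0.047. The cause was not tested. Low counts limit H2afy2 and most replication-dependent genes.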

Other observations

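Of 16 general histone chaperones and importins, which serve all histones, 12 were tested, of which 2 rose, 8 fell and 2 were not called with CX-5461, where 37.2% of all tested genes rose and 36.5% fell; the median log2 change was -0.23. Spty2d1, an H3-H4 chaperone, fell to 60.1 ± 2.18 CPM with CX-5461, against 119.1 ± 4.89 CPM with DMSO (SD, n = 3 per group, edgeR adjusted p = 1.44e-10). Nap1l4, of the nucleosome assembly protein family, averaged 111.2 ± 4.53 CPM with CX-5461 and 98.0 ± 0.728 CPM with DMSO (0.18 ± 0.05, edgeR adjusted p = 0.00312), a call that ended with library totals (0.11, adjusted p = 0.0583). Chosen with its values known, Npm1, which encodes the nucleolar chaperone nucleophosmin, fell to 378.8 ± 17.1 CPM with CX-5461, against 542.9 ± 1.53 CPM with DMSO, and its relative Npm3 to 16.4 ± 1.60 CPM, against 29.5 ± 1.32 CPM. The subunits of the FACT complex, Ssrp1 and Supt16, both changed by -0.23 (SE 0.04 and 0.05).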
